A study of Mus musculus with 9 samples.

Results

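Liver tumours treated with a drug-loaded nanocluster, labelled Co+Len@OVA+anti-PD1, were compared with tumours treated with free lenvatinib, labelled Lenvatinib+anti-PD1, across all genes. The libraries were chosen by these labels, and they are 6 of the 9 in the series, with 3 in each group. Hepa1-6-luc, a luciferase-marked mouse hepatoma line, was grown in the livers of mice, and the tumours were taken on day 14. Both groups received an antibody against PD1 at 50 µg per injection every 4 days. Nanoclusters at 2 mg/mL, or free lenvatinib at the matching concentration, were injected into the tail vein every 3 days. The remaining 3 libraries came from the group labelled Control, whose handling is not described further, and they are given as a reference level. The labels do not explain what Co stands for, and they give no strain, sex or age. Every tumour of both treated groups had received lenvatinib and the antibody in some form, and neither was given alone in any group that was sequenced. The effect of the carrier, of its other named parts and of drug delivery therefore cannot be told apart. Below, "nanocluster" and "lenvatinib" stand for the groups with their antibody.

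Lenvatinib is a kinase inhibitor that blocks the receptors for vascular endothelial growth factors (VEGF) and fibroblast growth factors (FGF), and antibodies against PD1 release an inhibitory signal in T cells. The liver is built mainly of hepatocytes, which secrete most plasma proteins, make bile acids, detoxify drugs and supply glucose, and hepatoma lines keep only some of these functions. Its sinusoids hold Kupffer cells, the resident macrophages, while monocytes, neutrophils and lymphocytes enter tumours from the blood. RNA from a whole piece of tissue does not tell fewer cells of a type from less RNA per cell.

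Column totals ranged from 3.32e+05 to 3.73e+05 FPKM, a measure of fragments scaled to transcript length and to the mapped total, which corrects for transcript length. Mitochondrially encoded transcripts held 12.3% to 12.8% of the nanocluster totals, 16.3% to 17.9% of the lenvatinib totals and 11.1% to 13.2% in Control. The third library of each group lay close to a mixture of the other 2. Where libraries 1 and 2 were more than 4-fold apart, its value fell in between for 97.5% of 275 genes in the nanocluster group, 97.5% of 281 in the lenvatinib group and 95.0% of 343 in Control. The p-values from 9 libraries are too small if these libraries are not independent, so the count of each gene list is also given without the third library of every group ("without the third libraries"), with the number at an unadjusted p below 0.05 ("unadjusted") where limma then called 0. Markers of other tissues differed between single libraries. Summed striated muscle genes reached 6116 and 2437 FPKM in lenvatinib libraries 2 and 3 and 10.02 to 70.9 FPKM in the other 7, and summed neural genes reached 133 and 68.9 FPKM in nanocluster libraries 1 and 3 and 7.78 to 18.5 FPKM elsewhere. Adipocyte genes summed to 989 and 497 FPKM in lenvatinib libraries 2 and 3, 345 and 228 FPKM in nanocluster libraries 1 and 3, and at most 168 FPKM in the others. Summed macrophage genes were at 592 FPKM in Control library 1 against 2125 and 1633 FPKM in the other controls.

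**Figure D1:**
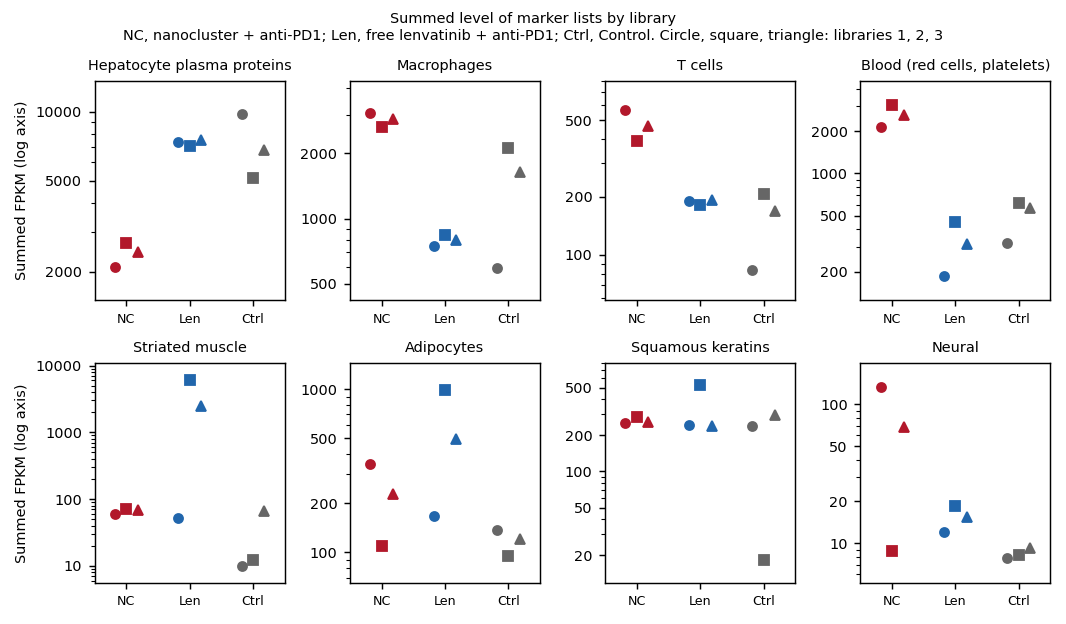
Summed FPKM of 8 marker lists in each library, on log axes, with 1 point per library (nanocluster, lenvatinib and Control, libraries 1 to 3 as circle, square and triangle). Hepatocyte plasma protein genes sum to at most 2671 FPKM in the nanocluster libraries and at least 7098 in the lenvatinib libraries, and muscle genes stand out in lenvatinib libraries 2 and 3.

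Of 15353 genes tested, 2657 rose in nanocluster over lenvatinib tumours (17.3%) and 1850 fell (12%), by limma at an adjusted p below 0.05. "Rose" and "fell" refer to this test throughout. Without the third libraries 68 rose (0.443%) and 297 fell (1.93%), and all 365 were among the 4507 above. The median log2 fold change over all genes was 0.07, and the middle 90% of genes lay between -1.05 and 1.28. Falls reached further than rises: 179 genes fell by over 8-fold and 14 rose by over 8-fold. The values of the groups did not overlap for 8406 genes (54.8%). For 64.2% of the genes that rose and 63.4% of those that fell, the Control mean lay between the means of the treated groups. Among those that rose it lay below both for 667 genes and above both for 284. Other scalings moved the split between directions: rescaling each library to the same total gave 3266 higher and 1318 lower, with a median log2 fold change of 0.18, and median-of-ratios scaling gave 2174 and 2324. Leaving out nanocluster replicate 3 gave 1218 higher and 1163 lower, lenvatinib replicate 3 gave 1391 and 1134, and Control replicate 1 gave 4224 and 2368. The number of genes that rose was also more than 1.5 times smaller without nanocluster replicate 1 (1768) and without lenvatinib replicate 1 (1372) or 2 (1760).

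**Figure D2:**
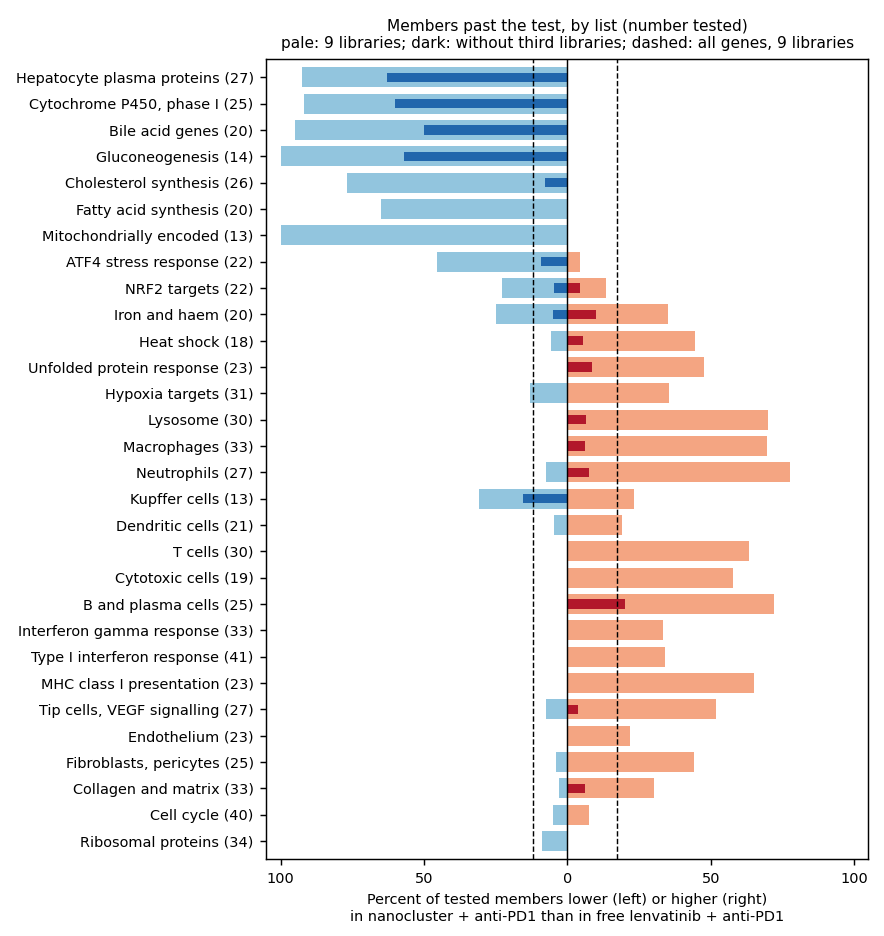
Percent of the tested members of 30 gene lists that fell (left) or rose (right) in nanocluster over lenvatinib tumours, pale bars for 9 libraries and dark bars without the third libraries; dashed lines mark 12% and 17.3% of all genes. Liver lists lie almost wholly on the left, lists of macrophages, neutrophils, T cells, B cells and lysosomes on the right, and the iron and NRF2 lists on both sides.

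Genes of differentiated hepatocytes were far lower in nanocluster tumours. Of 198 genes in 9 liver lists, 169 fell and 4 rose, with a median log2 fold change of -2.86, and 99 fell without the third libraries. The 4 that rose were Arg1, C2, Cfb and Saa3, and Arg1 also did so without the third libraries. Over 8-fold falls made up 90 of the 169. The Control mean lay between the treated groups for 141 of the 198 genes. Afp, the fetal albumin relative used as a hepatoma marker, was expressed in all groups. It stood at 239, 233 and 240 FPKM in nanocluster, 379, 339 and 385 FPKM in lenvatinib and 368 to 439 FPKM in Control libraries (log2 fold change -0.63 ± 0.08 SE, adjusted p = 0.0011). It fell, and much less than most liver genes. How much normal liver each sample held was not tested. Of 230 genes named in these results 191 rose or fell, and 51 of these passed in both fits. The liver genes among the 51 were Mup20, Gc, Apoa2, Plg, F13b, Mbl2, C6, C8a, C8g, C9, Saa4, Cyp2a5, Cyp1a2, Cyp3a11, Ugt2b5, Slc10a1, Arg1, Fbp1, G6pc, Creb3l3, Fabp1 and Acaa2, and the others are named where they are described.

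Genes of plasma proteins fell unevenly. Mup20, which encodes a urinary pheromone-binding protein of mouse hepatocytes, was at 5.78, 7.35 and 5.35 FPKM in nanocluster libraries and 339, 286 and 321 FPKM in lenvatinib libraries (log2 fold change -5.58 ± 0.12 SE, adjusted p = 4.19e-07). Mup genes are near-identical copies, so the share of reads given to each is uncertain. Gc, the vitamin D binding protein, was at 6.52, 8.22 and 8.96 FPKM against 277, 269 and 283 FPKM (log2 fold change -5.05 ± 0.30 SE, adjusted p = 2.61e-05). Neither gene's groups came near to overlapping, and both passed without the third libraries. Alb, which encodes albumin, was at 630, 908 and 781 FPKM against 2019, 1937 and 2084 FPKM, a fall of a different order (log2 fold change -1.40 ± 0.24 SE, adjusted p = 0.00421). Without the third libraries Alb did not pass (adjusted p = 0.154). In all, 25 of 27 hepatocyte plasma protein genes fell, 17 of them also without the third libraries. Selenop and Rbp4 were the pair that did not pass, at 416 against 472 FPKM and 283 against 456 FPKM on average. Without Control replicate 1 or 2 this pair passed too, and Rbp4 also without nanocluster replicate 2.

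Apolipoproteins, which carry plasma lipids, changed unevenly too. Apoa2, a structural protein of high-density lipoprotein, was at 10.5, 12.03 and 14.2 FPKM in nanocluster and 459, 393 and 408 FPKM in lenvatinib libraries (log2 fold change -5.05 ± 0.48 SE). Apoe, made by macrophages as well as hepatocytes, was at 3269, 3207 and 3217 FPKM against 2565, 2508 and 2675 FPKM (log2 fold change 0.32 ± 0.11 SE, adjusted p = 0.0640). Its groups did not overlap, and it passed without Control replicate 1 or 2. Of 16 apolipoprotein genes 14 fell (9 without the third libraries), the others being Apoe and Apoc2, which averaged 46.1 against 27.9 FPKM and passed as higher without Control replicate 1. Coagulation factors fell in 16 of 20 cases (11 without the third libraries), with Plg, the precursor of the clot-dissolving enzyme plasmin, at 0.79, 1.10 and 1.19 FPKM against 38.5, 37.6 and 38.1 FPKM. Fga, which encodes the fibrinogen alpha chain, averaged 2.41 against 60.6 FPKM. F7, the partner of tissue factor, did not pass and averaged 10.3 against 7.57 FPKM.

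Most complement genes fell. The terminal components C8a, C8b, C8g and C9, which form the membrane pore, and the lectin Mbl2, which recognises microbial sugars, fell. Mbl2 was at 0.66, 0.71 and 1.15 FPKM against 38.8, 36.9 and 39.8 FPKM (log2 fold change -4.88 ± 0.37 SE, adjusted p = 8.24e-05). C3, the central component, averaged 151 against 246 FPKM and fell less. C2 and Cfb, which supply the proteases of the convertases, rose, at means of 23.02 against 15.9 FPKM and 97.8 against 78.6 FPKM. In all, 14 of 20 fell and C2 and Cfb rose. The number that fell was 9 without the third libraries, where C2 (adjusted p = 0.181) and Cfb (adjusted p = 0.209) did not pass. Among acute phase genes 13 of 17 fell (6 without the third libraries), while Saa3, the serum amyloid A form made by macrophages and other cells, rose from 2.22, 2.72 and 3.14 to 16.2, 24.0 and 20.2 FPKM (log2 fold change 2.69 ± 0.33 SE, adjusted p = 0.000851, and 0.0680 without the third libraries). Its relatives Saa1, Saa2 and Saa4, which hepatocytes make, fell.

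Promoter sequences of liver genes are shown because these genes moved together. The HNF1 binding motif is a mark of liver promoters, and the form GTTAATNAT, searched on both strands, was found in 0.801% of all 32851 RefSeq windows (GRCm38.p6, 250 bases before to 50 after a transcript start). It occurred in 2 of 27 windows of the plasma protein list (Alb and Gc; 22 of 28 listed genes had a window) and 2 of 17 windows of the coagulation list (F13b and Fga; 17 of 20 had one). All 4 genes fell, but so did 25 of 27 and 16 of 20 tested genes of these lists, so the direction says nothing about the motif. The stretches are on the gene's strand and end before the transcript start, with the motif in capitals: Alb at chr5:90460813-90460869 (+), Gc at chr5:89457917-89457975 (-) and Fga at chr3:83026082-83026140 (+), where it reads on the opposite strand.
Alb: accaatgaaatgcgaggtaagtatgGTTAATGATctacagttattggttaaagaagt
Gc: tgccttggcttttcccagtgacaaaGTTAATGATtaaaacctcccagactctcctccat
Fga: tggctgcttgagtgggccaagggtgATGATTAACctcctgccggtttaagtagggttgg
The motif sits 32, 52 and 46 bases before the start. Genes with it differed widely in their change, since Alb was at a log2 fold change of -1.40 and Gc at -5.05. A match describes the letters and not binding.

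Drug-handling and bile acid genes followed the plasma proteins. Of 25 cytochrome P450 and other phase I genes 23 fell (15 without the third libraries), and the exceptions were Cyp3a13 and Aldh1a1, the latter passing as higher without nanocluster replicate 1. Cyp2a5, an enzyme of nicotine and coumarin oxidation, was at 2.63, 2.96 and 3.22 FPKM against 135, 122 and 134 FPKM, with 6.78 to 11.2 FPKM in Control. Cyp1a2, which metabolises caffeine, was at 1.17, 3.10 and 2.34 FPKM against 58.9, 49.6 and 58.6 FPKM, with 3.75 to 5.84 FPKM in Control. For both, Control lay far nearer to the nanocluster than to the lenvatinib tumours. Cyp3a11, a main drug-metabolising enzyme, showed another pattern, at 1.02, 1.07 and 1.46 FPKM against 43.3, 43.2 and 46.2 FPKM, while Control ranged from 11.2 to 42.7 FPKM. Conjugating (phase II) genes fell in 19 of 23 cases (13 without the third libraries), led by the glucuronosyltransferase Ugt2b5 (log2 fold change -4.89 ± 0.12 SE, adjusted p = 4.19e-07). Of the bile acid genes 19 of 20 fell (10 without the third libraries), among them Slc10a1, the sodium-coupled bile acid importer, at 0.46, 0.41 and 0.49 FPKM against 13.8, 14.0 and 14.3 FPKM. Cyp7a1, the rate-limiting enzyme of bile acid synthesis, averaged 0.091 against 2.74 FPKM and did not pass without the third libraries (adjusted p = 0.106).

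Most genes of nitrogen metabolism and of glucose production fell. Of 30 urea cycle and amino acid genes 26 fell (9 without the third libraries). Arg1, the urea cycle arginase that also marks tumour-associated myeloid cells, rose, at 64.8, 85.5 and 76.3 FPKM against 30.6, 34.8 and 34.9 FPKM (log2 fold change 1.16 ± 0.10 SE, adjusted p = 0.000177, and 0.0406 without the third libraries). In Control Arg1 was higher still, at 108 to 115 FPKM. All 14 gluconeogenesis and hepatic glucose genes fell, 8 of them without the third libraries. Fbp1, fructose bisphosphatase, was at 0.51, 0.83 and 0.57 FPKM against 24.0, 23.4 and 21.9 FPKM, and G6pc, which releases glucose, averaged 0.24 against 8.29 FPKM. Glycolysis genes did not follow. Of 21, 6 rose, among them Pgk1, the phosphoglycerate kinase, with means of 418 against 294 FPKM and 427 FPKM in Control. Without the third libraries limma called 0 of the 21, and 4 were higher at an unadjusted p below 0.05. Only 3 rose without nanocluster replicate 3 or lenvatinib replicate 1.

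**Figure D3:**
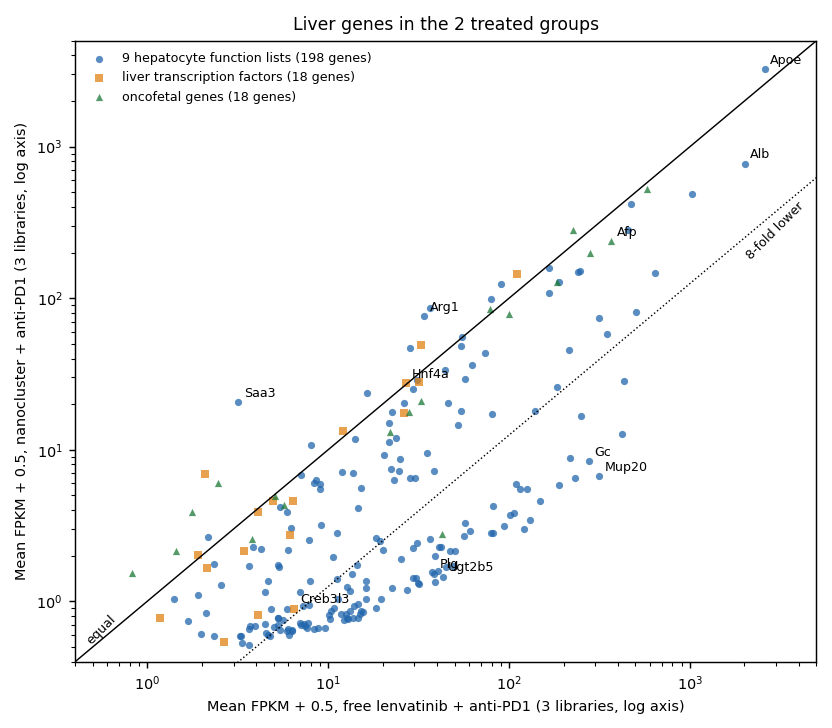
Mean FPKM + 0.5 of liver genes in lenvatinib (x) and nanocluster (y) tumours, on log axes, with 1 point per gene; the solid line marks equal values and the dotted line an 8-fold lower value. Most of the 198 function genes lie below the solid line, 90 of them past 8-fold, while Hnf4a lies on it.

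Most transcription factors of hepatocytes fell or did not pass, and 2 rose. Hnf4a, a central regulator of hepatocyte genes, was at 25.4, 29.2 and 26.4 FPKM in nanocluster, 26.3, 25.2 and 27.8 FPKM in lenvatinib and 27.3 to 29.0 FPKM in Control libraries (log2 fold change 0.03 ± 0.07 SE, adjusted p = 0.766). The groups overlapped, and the sign turned with the scaling or without library 2 of either treatment. Cebpa, a regulator of liver metabolism, was at 29.0, 26.0 and 27.6 FPKM against 27.8, 34.9 and 30.8 FPKM (adjusted p = 0.330). Of 18 liver transcription factors 7 fell, 2 rose and 9 did not pass. The share that fell was above the 12% of all genes, and the share that rose was under their 17.3%. Those that fell included Creb3l3, a membrane-bound factor of fasting metabolism, at 0.45, 0.31 and 0.42 FPKM against 6.14, 6.01 and 5.90 FPKM (log2 fold change -2.87 ± 0.11 SE, adjusted p = 3.58e-06), which alone of the 18 also passed without the third libraries. The xenobiotic receptors Nr1i3 and Nr1i2 fell too, to means of 0.32 and 0.041 FPKM from 3.59 and 2.15 FPKM, respectively. The factors that rose were Foxa2 (48.7 against 32.3 FPKM) and Tbx3 (6.43 against 1.59 FPKM). Neither passed without nanocluster replicate 2 or 3 or without any 1 lenvatinib replicate, and Foxa2 also not without Control replicate 3.

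Several oncofetal genes fell, and few cell cycle genes passed the test. Of 18 oncofetal and progenitor genes 6 fell (Afp, Igf2bp3, Sox9, Epcam, Spp1 and Tspan8) and 2 rose (Igf2bp2 and Tff3), and 0 passed without the third libraries by limma (1 higher and 6 lower at an unadjusted p below 0.05). Epcam, an adhesion molecule of progenitor and carcinoma cells, was at 14.9, 11.5 and 11.6 FPKM against 23.2, 19.9 and 21.6 FPKM. Igf2bp2, an RNA-binding protein of fetal tissue, averaged 3.38 against 1.26 FPKM (adjusted p = 0.000856). Tff3 and Sox9 did not pass without nanocluster replicate 2 or 3 or any 1 lenvatinib replicate, and Tff3 also not without Control replicate 3. Among 40 cell cycle genes 3 rose (Ccna2, Mcm4 and Mcm5) and 2 fell (Cdk1 and Cenpe), under the 17.3% and 12% of all genes, and limma called 0 without the third libraries (1 higher and 1 lower unadjusted). Median-of-ratios scaling turned this to 1 higher and 4 lower. Without nanocluster replicate 3 or any 1 lenvatinib replicate 1 rose, and without nanocluster replicate 1 or Control replicate 1 5 rose. Mcm4 and Mcm5 did not pass without nanocluster replicate 3 or any 1 lenvatinib replicate, nor Mcm5 without nanocluster replicate 2 or Control replicate 3. Cenpe did not pass without any 1 nanocluster replicate, lenvatinib replicate 1 or 3 or Control replicate 3, which left 1 lower in those fits but that without nanocluster replicate 2. Mki67, the proliferation antigen, was at 17.6, 25.4 and 20.9 FPKM against 20.8, 20.003 and 20.4 FPKM, with 14.5 to 15.4 FPKM in Control. Nanocluster library 2 was highest and library 1 lowest of the treated 6. For 35 of the 40 cell cycle genes the Control mean was below both treatments.

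Genes of lipid synthesis were lower in nanocluster tumours. Of 26 cholesterol synthesis genes 20 fell, with a median log2 fold change of -0.49. Hmgcs1, which makes the mevalonate precursor HMG-CoA, was at 20.3, 18.5 and 18.9 FPKM against 34.8, 33.4 and 36.2 FPKM, and 17.7 to 20.4 FPKM in Control (log2 fold change -0.84 ± 0.07 SE, adjusted p = 0.000133). For Hmgcs1 the nanocluster tumours stood with Control. Without the third libraries 2 cholesterol genes fell, Hmgcs1 among them, and 13 fell without nanocluster replicate 3. Of 20 fatty acid synthesis genes 13 fell, limma called 0 without the third libraries (7 lower unadjusted), and 6 or 7 fell without nanocluster replicate 2 or 3 or lenvatinib replicate 2 or 3. Thrsp, a lipogenic protein of liver and fat, varied widely, at 9.31, 1.39 and 5.51 FPKM against 18.4, 46.9 and 29.5 FPKM, and did not pass without replicate 2 or 3 of either treatment or Control replicate 3. The adipocyte marker sums above move with the summed fatty acid synthesis genes, at 510, 784 and 634 FPKM in lenvatinib and 422, 377 and 402 FPKM in nanocluster libraries. Summed cholesterol synthesis genes, at 479, 457 and 486 FPKM in lenvatinib libraries, did not follow them. Thrsp is itself on the adipocyte list. What part adipocytes had in the result was not tested.

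Fatty acid handling genes fell as well, some of them steeply. Fabp1, the liver fatty acid binding protein, was at 3.25, 6.25 and 5.25 FPKM against 228, 189 and 214 FPKM, with 17.0 to 20.3 FPKM in Control (log2 fold change -5.32 ± 0.20 SE, adjusted p = 2.74e-06). Acaa2, a thiolase of the mitochondrial cycle, averaged 28.0 against 72.1 FPKM, a smaller fall. In total 14 of 25 fell (8 without the third libraries) and Cpt1a rose (adjusted p = 0.298 without the third libraries). Cpt1a did not pass without any 1 of the 6 treated libraries or Control replicate 3. All 13 mitochondrially encoded mRNAs fell, with a median log2 fold change of -0.53, and without the third libraries limma called 0 (9 lower at an unadjusted p below 0.05). Of these 13, 8 fell without nanocluster replicate 3 or lenvatinib replicate 2. Nuclear-encoded subunits of the same complexes had a median of -0.13: Ndufa1, Ndufa4, Ndufa9, Sdha and Uqcrh fell and Cox8a rose of 34. This was near the 12% of all genes for falls and under the 17.3% for rises. After rescaling to the same total 1 was lower and 2 were higher, and limma called 0 without the third libraries (3 lower and 0 higher unadjusted). Without single libraries 2 to 8 fell, the fewest without nanocluster replicate 3 and the most without Control replicate 1, with 3 without nanocluster replicate 2, lenvatinib replicate 2 or 3 or Control replicate 3. Ndufa1 did not pass without any 1 of the 6 treated libraries or Control replicate 3, Cox8a not without nanocluster replicate 2 or 3, any 1 lenvatinib replicate or Control replicate 3, Sdha not without replicate 2 or 3 of either treatment or Control replicate 3, and Uqcrh not without nanocluster replicate 3 or lenvatinib replicate 1. Ndufa4, a small subunit of the respiratory chain, was at 42.6, 54.6 and 50.1 FPKM against 75.04, 77.5 and 78.1 FPKM.

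Haem and iron genes changed in both directions. Hmox1, which degrades haem to iron, biliverdin and carbon monoxide, was at 441, 367 and 419 FPKM in nanocluster, 43.8, 44.2 and 50.9 FPKM in lenvatinib and 43.6, 96.5 and 89.7 FPKM in Control libraries. The log2 fold change was 3.13 ± 0.27 SE (adjusted p = 0.000157, and 0.0291 without the third libraries). The ferritin chains that store iron rose, Fth1 at 877, 1017 and 970 FPKM against 382, 400 and 399 FPKM, and Ftl1 at 2429, 2135 and 2306 FPKM against 1532, 1433 and 1506 FPKM. Tfrc, the transferrin receptor that imports iron, fell, at 5.71, 8.66 and 7.07 FPKM against 13.2, 12.3 and 13 FPKM. Alas1, the first enzyme of haem synthesis, fell as well, at 6.93, 8.81 and 8.28 FPKM against 16, 18.6 and 17.3 FPKM (log2 fold change -1.07 ± 0.09 SE, adjusted p = 0.000151). Fth1 and Alas1 also passed without the third libraries. Slc40a1, the iron exporter, averaged 16.4 against 6.64 FPKM and did not pass without any 1 of the 6 treated libraries or Control replicate 3. Of 20 genes 7 rose and 5 fell, the latter being Tfrc, Alas1, Hpx, Aco1 and Hebp1, and 2 rose and 1 fell without the third libraries. Without nanocluster replicate 1 or 3 or any 1 lenvatinib replicate 4 rose. Haemoglobin transcripts moved with this group: Hbb-bs was at 661, 935 and 799 FPKM in nanocluster, 47.3, 124 and 83.1 FPKM in lenvatinib and 88.4 to 173 FPKM in Control libraries. Blood in the pieces as a source of the change was not tested. In nanocluster libraries Hmox1 was highest in library 1, where Hbb-bs was lowest, while in the lenvatinib group and in Control both genes were lowest in library 1.

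Most other targets of NRF2, the oxidant-response factor, did not rise with Hmox1. Nqo1, a quinone reductase and classical target, was at 3.71, 5.43 and 4.42 FPKM against 8.23, 6.55 and 8.44 FPKM (log2 fold change -0.72 ± 0.15 SE, adjusted p = 0.00989). Slc7a11, the cystine importer, was at 5.49, 5.15 and 5.29 FPKM against 4.95, 4.55 and 5.34 FPKM (adjusted p = 0.355). Gpx2, an epithelial glutathione peroxidase, was at 5.53, 5.98 and 6.41 FPKM against 19.9, 18.3 and 18.98 FPKM, the groups far apart, and passed also without the third libraries. Of 22 NRF2 targets Hmox1, G6pdx and Taldo1 rose and Nqo1, Txnrd1, Osgin1, Aox1 and Gpx2 fell, of which Hmox1 and Gpx2 passed without the third libraries. The share that rose was near the 17.3% of all genes, and the share that fell was above their 12%. After rescaling to the same total 7 rose and 4 fell, and without Control replicate 1 6 rose. Without lenvatinib replicate 3 3 fell: Txnrd1 did not pass there, and Osgin1 not without nanocluster replicate 1 or 3 or any 1 lenvatinib replicate. Catalase (Cat), which removes hydrogen peroxide, was at 43.3, 39.4 and 41.9 FPKM against 109, 110 and 111 FPKM, and 44.0 to 47.7 FPKM in Control (log2 fold change -1.40 ± 0.06 SE, adjusted p = 3.86e-06). Cat also passed without the third libraries. The nanocluster tumours thus stood with Control, and the lenvatinib tumours above both. The metallothioneins Mt1 and Mt2, which bind zinc and other metal ions, did not pass. Mt2 was at 251, 250 and 265 FPKM against 251, 208 and 218 FPKM, with 526 to 1378 FPKM in Control.

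**Figure D4:**
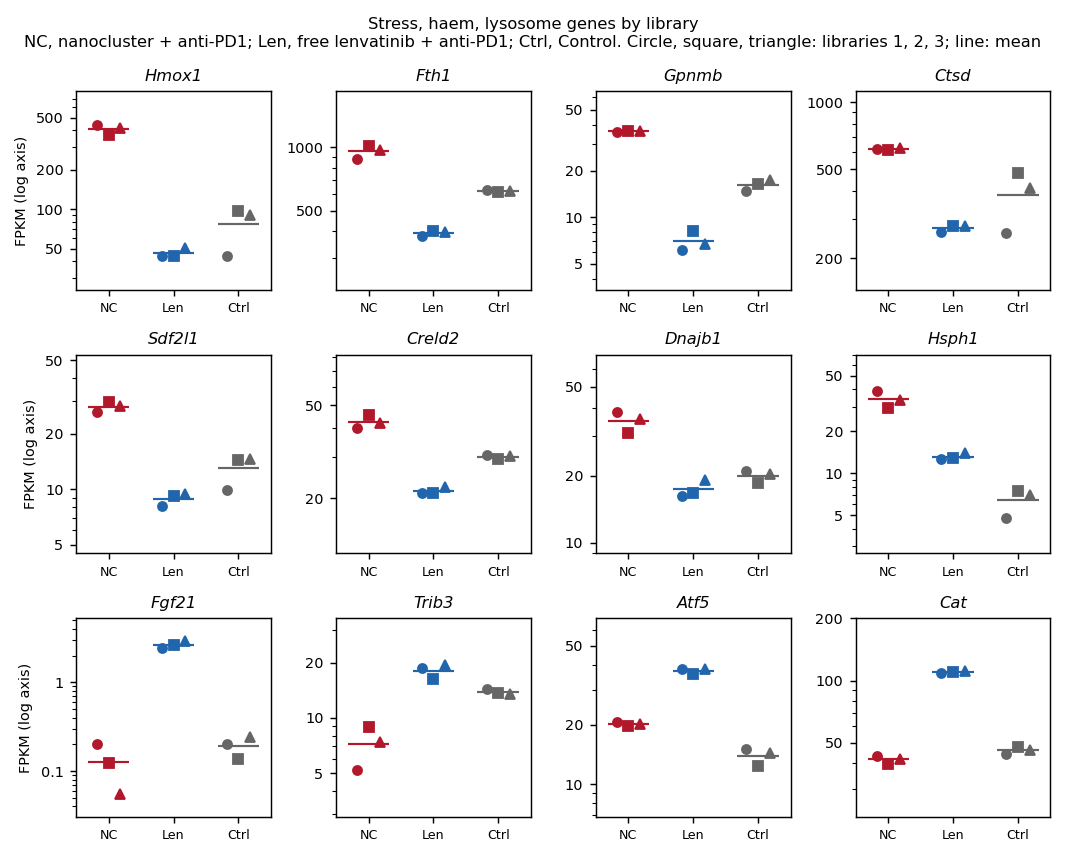
FPKM of 12 haem, lysosome and stress genes in each library on log axes, with points for libraries 1 to 3 and a line at the mean of each group (NC nanocluster, Len lenvatinib, Ctrl Control). Fgf21 and Cat are high in the lenvatinib group only among the 3 groups, while Hmox1 and Sdf2l1 are high in the nanocluster group.

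Lysosomal genes were higher in nanocluster tumours. Of 30 genes 21 rose, with a median log2 fold change of 0.79, and 2 of them, Gpnmb included, also rose without the third libraries. Gpnmb, a glycoprotein of lysosome-rich macrophages, was at 36.0, 36.4 and 36.3 FPKM against 6.11, 8.17 and 6.68 FPKM, and 14.9 to 17.4 FPKM in Control (log2 fold change 2.30 ± 0.10 SE, adjusted p = 5.43e-06). Ctsd, the aspartic protease cathepsin D, was at 619, 608 and 621 FPKM against 262, 278 and 278 FPKM (log2 fold change 1.18 ± 0.19 SE, adjusted p = 0.00365). Tfeb, the transcription factor of lysosome biogenesis, was at 4.57, 5.20 and 5.19 FPKM against 3.45, 4.68 and 4.38 FPKM, and the groups overlapped (adjusted p = 0.261). The count was 12 without nanocluster replicate 3 and 13 without lenvatinib replicate 1. Macrophage genes rose beside these, as given below, and macrophages are rich in lysosomes. Their part in the lysosomal change was not tested.

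The E-box TCACGTG is the core of the CLEAR element to which Tfeb and its relatives bind. On either strand it was found in 3.77% of all windows and in 6 of 30 windows of the lysosome list, those of Atp6v1a, Ctsa, Ctsd, Lamp1, Lgmn and Mcoln1 (23 of 30 listed genes had a window). All 6 genes rose, but so did 21 of the 30 genes of the list, so the direction says little about the motif. Lgmn did not pass without replicate 1 or 3 of either treatment, and Lamp1 not without nanocluster replicate 3. Matches on both strands overlap where an A follows, since the letters then read the same on either strand. Shown are Ctsd at chr7:142387894-142387950 (-), Ctsa at chr2:164833736-164833772 (+) and Lgmn at chr12:102439111-102439167 (-), with the match in capitals.
Ctsd: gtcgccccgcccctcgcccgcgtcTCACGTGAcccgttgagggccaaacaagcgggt
Ctsa: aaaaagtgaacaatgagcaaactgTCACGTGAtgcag
Lgmn: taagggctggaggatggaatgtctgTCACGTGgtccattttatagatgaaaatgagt
Ctsa, a protective protease of the lysosome, rose by 0.75 ± 0.14 SE and Lgmn, an asparaginyl protease, by 1.92 ± 0.48 SE on the log2 scale.

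Protein folding genes rose in both the endoplasmic reticulum and the cytosol. Of 23 unfolded protein response genes 11 rose, and Sdf2l1 and Creld2 also did so without the third libraries. Sdf2l1, a co-chaperone, was at 26.2, 29.8 and 28.2 FPKM against 8.09, 9.21 and 9.40 FPKM (log2 fold change 1.60 ± 0.14 SE, adjusted p = 0.000181). Hspa5, the main chaperone of the compartment (BiP), was at 189, 206 and 198 FPKM against 117, 118 and 124 FPKM, and higher than both in Control, at 267 to 382 FPKM. Of 18 heat shock genes 8 rose and Hspa9 fell, and Dnajb1 alone passed without the third libraries. Hspa9, a mitochondrial chaperone, did not pass without nanocluster replicate 1 or 3, any 1 lenvatinib replicate or Control replicate 3. Dnajb1, an HSP40 co-chaperone, was at 38.6, 30.9 and 35.8 FPKM against 16.1, 16.7 and 19.1 FPKM (log2 fold change 1.00 ± 0.10 SE, adjusted p = 0.000294, and 0.0366 without the third libraries). Hsph1, of the HSP110 family, was at 39.1, 29.4 and 33.5 FPKM against 12.6, 12.8 and 14.1 FPKM, and 4.82 to 7.46 FPKM in Control. Unlike Hspa5, Hsph1 was thus above Control in both treatments.

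The ER stress element is a pair of CCAAT and CCACG 9 bases apart. On either strand it was found in 0.119% of all windows and in 7 of 20 windows of the unfolded protein response list (Calr, Canx, Creld2, Dnajc3, Hsp90b1, Hspa5 and Pdia6; 20 of 23 listed genes had a window). Of these 7, Calr, Creld2 and Hspa5 rose and the others did not pass. Dnajc3 and Pdia6 passed as higher without Control replicate 1, and Pdia6 also without nanocluster replicate 1. The 3 that rose are shown with the element in capitals, Hspa5 at chr2:34772000-34772068 (+), Creld2 at chr15:88819495-88819563 (+) and Calr at chr8:84847050-84847118 (-), the latter pair with the element on the opposite strand.
Hspa5: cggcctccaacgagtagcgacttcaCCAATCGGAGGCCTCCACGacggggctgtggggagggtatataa
Creld2: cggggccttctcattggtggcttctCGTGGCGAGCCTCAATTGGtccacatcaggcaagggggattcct
Calr: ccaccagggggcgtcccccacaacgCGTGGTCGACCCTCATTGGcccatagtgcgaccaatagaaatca
Creld2, an ER chaperone secreted under stress, rose by 0.96 ± 0.06 SE on the log2 scale and Calr, the calcium-binding chaperone calreticulin, by 0.62 ± 0.06 SE.

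Targets of ATF4, the factor of the integrated stress response to amino acid shortage, went the other way. Of 22 genes 10 fell and Atf3 rose. Fgf21, a fasting hormone of the liver and a ligand of the FGF receptors that lenvatinib blocks, was at 0.20, 0.12 and 0.055 FPKM against 2.42, 2.67 and 2.92 FPKM, and 0.14 to 0.24 FPKM in Control (log2 fold change -2.34 ± 0.15 SE, adjusted p = 3.33e-05). Atf5, a related factor, was at 20.7, 19.8 and 20.1 FPKM against 38.0, 36.1 and 38.3 FPKM, and 12.3 to 15.1 FPKM in Control. These genes were the pair that passed without the third libraries. Trib3, a pseudokinase that curbs ATF4, was at 5.21, 8.97 and 7.34 FPKM against 18.7, 16.3 and 19.3 FPKM. Inhbe, a hepatokine of the activin family listed with the TGF-beta genes, averaged 0.027 against 1.67 FPKM and fell also without the third libraries. Atf4 itself did not pass, at 67.8, 65.8 and 67.8 FPKM against 78.1, 77.6 and 83.0 FPKM (adjusted p = 0.260). The C/EBP-ATF letters TTGCATCA were found on either strand in 0.895% of all windows and in 7 of 25 windows of this list (Atf3, Chac1, Fgf21, Nupr1, Pycr1, Slc7a11 and Vldlr; 20 of 22 listed genes had a window). Among these 7, Fgf21 fell, Atf3 rose and the others did not pass. Without Control replicate 1 or 2 Chac1 passed as lower and Nupr1 as higher, as they did without lenvatinib replicate 1 and replicate 2, respectively. So few called genes cannot show whether the letters go with a direction. The called genes Fgf21 (chr7:45615597-45615654, -) and Atf3 (chr1:191183411-191183468, -) are shown.
Fgf21: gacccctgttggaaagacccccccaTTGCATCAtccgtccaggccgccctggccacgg
Atf3: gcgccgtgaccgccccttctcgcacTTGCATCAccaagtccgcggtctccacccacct
Atf3, an early stress factor, averaged 13.2 against 9.29 FPKM and did not pass without replicate 1, 2 or 3 of the nanocluster group, replicate 1 or 3 of the lenvatinib group or Control replicate 3.

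Hypoxia targets were divided. Of 31 genes 11 rose, a share above the 17.3% of all genes, and 4 fell (Car9, Egln1, Tfrc and Selenbp1), near the 12%. Without the third libraries limma called 0 (9 higher and 4 lower at an unadjusted p below 0.05). For 24 of the 31 the Control mean was above both treatments. Adm, the vasodilator adrenomedullin, was at 2.83, 2.41 and 2.80 FPKM against 0.96, 1.12 and 1.00 FPKM, and 4.61 to 5.54 FPKM in Control (log2 fold change 1.06 ± 0.10 SE, adjusted p = 0.000278). Car9, a carbonic anhydrase of hypoxic cells, was at 7.96, 7.56 and 8.33 FPKM against 12.5, 11.2 and 13.2 FPKM, and 17.4 to 17.9 FPKM in Control. The nanocluster tumours thus lay nearer to Control for Adm and farther from it for Car9. Among 27 cell death genes 8 rose and Casp6 fell, with Casp1, the inflammasome protease, at 11.03, 11.1 and 11.6 FPKM against 7.02, 6.55 and 6.62 FPKM. Of 20 p53 targets Fas, the death receptor, rose and Bbc3 and Plk2 fell, shares under the 17.3% and 12% of all genes. In both lists limma called 0 without the third libraries (6 cell death genes higher, and 1 p53 target higher and 2 lower, unadjusted). Without nanocluster replicate 3 or lenvatinib replicate 3 Fas and Casp6 did not pass, nor Casp6 without lenvatinib replicate 1. Of the cell death genes 5 rose without nanocluster replicate 3 and 15 without Control replicate 1, and of the p53 targets 2 rose without lenvatinib replicate 2 or Control replicate 2 and 3 without Control replicate 1.

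Macrophage genes were higher in nanocluster tumours. Of 33 genes 23 rose, with a median log2 fold change of 1.65. All 33 had groups that did not overlap, against 54.8% of all genes tested. Cd14, the endotoxin co-receptor, was at 38.2, 38.8 and 38.8 FPKM against 11.6, 13.5 and 13.2 FPKM (log2 fold change 1.56 ± 0.10 SE, adjusted p = 2.85e-05), and it and Plac8 also rose without the third libraries. Lyz2, the lysozyme of myeloid cells, was at 1004, 881 and 941 FPKM against 172, 231 and 202 FPKM, and 90.9 to 317 FPKM in Control (log2 fold change 2.23 ± 0.41 SE, adjusted p = 0.00597). Itgam, the CD11b integrin, was at 15.9, 16.3 and 14.6 FPKM against 1.57, 2.93 and 2.501 FPKM. Adgre1, the F4/80 antigen, was at 21.2, 12.97 and 17.6 FPKM against 4.11, 5.93 and 5.28 FPKM and did not pass (adjusted p = 0.125). Csf1r, the receptor that macrophages need to survive, did not pass either (adjusted p = 0.0916). Both passed without Control replicate 1, in which Adgre1 was at 1.303 FPKM against 17.1 and 12.4 FPKM in the other controls. Without that library 32 of the 33 rose, and without nanocluster replicate 1 or 3 or any 1 lenvatinib replicate 13 or 14 rose.

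Kupffer cell markers changed in both directions. Clec4f, a lectin held to be specific to Kupffer cells, was at 0.076, 0.18 and 0.18 FPKM in nanocluster, 8.22, 7.65 and 8.31 FPKM in lenvatinib and 2.72, 3.51 and 3.30 FPKM in Control libraries (log2 fold change -3.73 ± 0.12 SE, adjusted p = 1.34e-06). The 3 groups were fully separate. Vsig4, a complement receptor, was at 1.06, 1.00 and 1.05 FPKM against 3.57, 4.30 and 4.27 FPKM, and Cd5l, a secreted protein of tissue macrophages, at 2.35, 4.07 and 2.84 FPKM against 16.8, 14.2 and 14.7 FPKM. Timd4, a receptor for dying cells, was at 0.25, 0.78 and 0.61 FPKM against 0.65, 0.65 and 0.87 FPKM (adjusted p = 0.449). Marco, a scavenger receptor also found on other macrophages, rose, at 12.97, 32.7 and 24.5 FPKM against 4.29, 4.83 and 4.73 FPKM (log2 fold change 2.13 ± 0.29 SE, adjusted p = 0.00142). Of 13 markers tested 4 fell (Clec4f, Vsig4, Cd5l and C6), above the 12% of all genes, and 3 rose (Marco, Slc40a1 and Spic), near the 17.3%. Clec4f and C6 also fell without the third libraries, where limma called 0 as higher (2 unadjusted), and C6 is a complement gene of hepatocytes too. Cd5l did not pass without replicate 1 or 3 of the nanocluster group or any 1 lenvatinib replicate, and Slc40a1 not without any 1 of the 6 treated libraries or Control replicate 3. Among 13 markers of liver sinusoidal endothelium, Stab1 and Fcgr2b, which macrophages share, rose, and Clec4g fell from a mean of 1.12 to 0.044 FPKM. These shares were no larger than those of all genes (17.3% and 12%), and limma called 0 without the third libraries (2 higher and 1 lower unadjusted). Without Control replicate 1 5 Kupffer markers and 4 endothelial markers rose and 3 endothelial markers fell.

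Neutrophil genes were higher as well, with 21 of 27 risen. Clec4d, a lectin of neutrophils and inflammatory monocytes, was at 19.3, 13.4 and 16.8 FPKM against 1.11, 2.35 and 1.72 FPKM, and 1.82 to 2.21 FPKM in Control (log2 fold change 2.95 ± 0.21 SE, adjusted p = 5.81e-05). Chil3, the lectin Ym1 of myeloid cells, was at 15.95, 10.3 and 14.1 FPKM against 1.17, 1.38 and 1.96 FPKM, but 12.9 to 26.6 FPKM in Control. These 2 alone of the 27 also passed without the third libraries. S100a8, a calcium-binding alarmin, was at 40.3, 16.9 and 29.8 FPKM against 4.25, 5.33 and 7.198 FPKM, with 21.9 to 27.0 FPKM in Control. Clec4d was thus high in the nanocluster group only, and Chil3 and S100a8 were low in the lenvatinib group only, among the 3 groups. Padi4 and Lcn2 fell, the latter being an iron-carrier binding protein that hepatocytes also make, at 7.97, 5.13 and 6.41 FPKM against 13.7, 12.5 and 13.5 FPKM. Among inflammatory genes 16 of 28 rose and Il33 and Lif fell, with Nos2, which makes nitric oxide, at 11.2, 24.1 and 17.2 FPKM against 3.70, 3.87 and 3.57 FPKM. Of these 28 limma called 0 without the third libraries (11 higher and 1 lower unadjusted). Without nanocluster replicate 3 9 rose, and without lenvatinib replicate 1 or 3 10 rose. Il33, an alarm cytokine, did not pass without nanocluster replicate 2 or 3 or lenvatinib replicate 1 or 3.

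T cell genes rose in 19 of 30 cases, and without the third libraries limma called 0 (15 higher at an unadjusted p below 0.05). Cd8a, a chain of the CD8 co-receptor, was at 42.4, 30.4 and 35.4 FPKM against 11.5, 12.2 and 11.5 FPKM, and 3.22, 12.1 and 9.53 FPKM in Control (log2 fold change 1.57 ± 0.40 SE, adjusted p = 0.0211). Cd4, the co-receptor of helper cells, was at 7.16, 2.65 and 4.72 FPKM against 1.63, 1.70 and 1.91 FPKM (log2 fold change 1.16 ± 0.46 SE, adjusted p = 0.0879). Nanocluster library 1 was highest for both. Gzmb, the cytotoxic protease granzyme B, was at 46.9, 67.7 and 56.4 FPKM against 10.95, 10.7 and 11.5 FPKM, with library 2 highest (log2 fold change 2.30 ± 0.44 SE, adjusted p = 0.0072, and 0.154 without the third libraries). Ifng, which encodes interferon gamma, was at 4.59, 6.06 and 5.22 FPKM against 3.10, 3.30 and 2.90 FPKM and did not pass (adjusted p = 0.0808). Foxp3, the factor of regulatory T cells, was at 0.68, 0.61 and 0.57 FPKM against 0.55, 0.72 and 0.56 FPKM (log2 fold change 0.01 ± 0.42 SE, adjusted p = 0.985), with overlapping groups and a sign that turned with the scaling. Of 19 cytotoxic cell genes 11 rose, and limma called 0 without the third libraries (8 higher unadjusted). Cd8a did not pass without nanocluster replicate 1 or 3 or any 1 lenvatinib replicate, and in these fits 5 to 11 T cell genes rose. Cytotoxic genes then numbered 7 to 9, and without Control replicate 1 28 T cell and 17 cytotoxic genes rose. Cd4 passed without Control replicate 1, and Ifng without Control replicate 1 or 2.

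Checkpoint receptors rose in 14 of 25 cases, and Pvr, a ligand of Tigit, fell. Tigit, an inhibitory lymphocyte receptor, was at 92.3, 99.8 and 98.4 FPKM against 37.3, 37.2 and 39.7 FPKM and was the only one to pass without the third libraries. Pdcd1, which encodes PD1, was at 33.8, 28.8 and 30.4 FPKM against 11.6, 10.5 and 12.5 FPKM (log2 fold change 1.39 ± 0.44 SE, adjusted p = 0.0456). Its ligand Cd274 was at 31.2, 28.0 and 28.5 FPKM against 13.2, 11.9 and 13.7 FPKM (log2 fold change 1.14 ± 0.21 SE, adjusted p = 0.00573). Pdcd1 did not pass without any 1 of the 6 treated libraries or Control replicate 3, and 5 to 9 checkpoint genes rose in these 7 fits. Ctla4, Stat4, Bcl6 and Tgfb1 rose of 11 helper and regulatory genes. Limma called 0 of them without the third libraries (2 higher unadjusted), and 2 of the 11 rose without nanocluster replicate 1 or 3, lenvatinib replicate 1 or 3 or Control replicate 3 and 8 without Control replicate 1. Stat4 did not pass without any 1 of the 6 treated libraries or Control replicate 3, and Bcl6 not without replicate 1 or 3 of either treatment or Control replicate 2 or 3.

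B cell and plasma cell genes rose in 18 of 25 cases. Ighg2c, the constant region of an IgG2 antibody, was at 33.9, 98.2 and 65.7 FPKM against 2.63, 2.98 and 3.01 FPKM, and 16.8 to 18.8 FPKM in Control (log2 fold change 4.17 ± 0.32 SE, adjusted p = 8.63e-05). Igkc, the kappa light chain, was at 182, 235 and 215 FPKM against 20.8, 33.7 and 28.3 FPKM (log2 fold change 2.93 ± 0.17 SE, adjusted p = 2.44e-05). Mzb1, a chaperone of antibody-secreting cells, was at 2.94, 3.33 and 3.51 FPKM against 0, 0.21 and 0.10 FPKM. These and Ighg2b and Ighg1 also rose without the third libraries. The variable segment Igkv12-46 rose too, in both fits, at 58.4, 70.9 and 59.9 FPKM against 1.65, 1.78 and 1.77 FPKM. Antibody segments are related in sequence, so their reads may be shared.

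**Figure D5:**
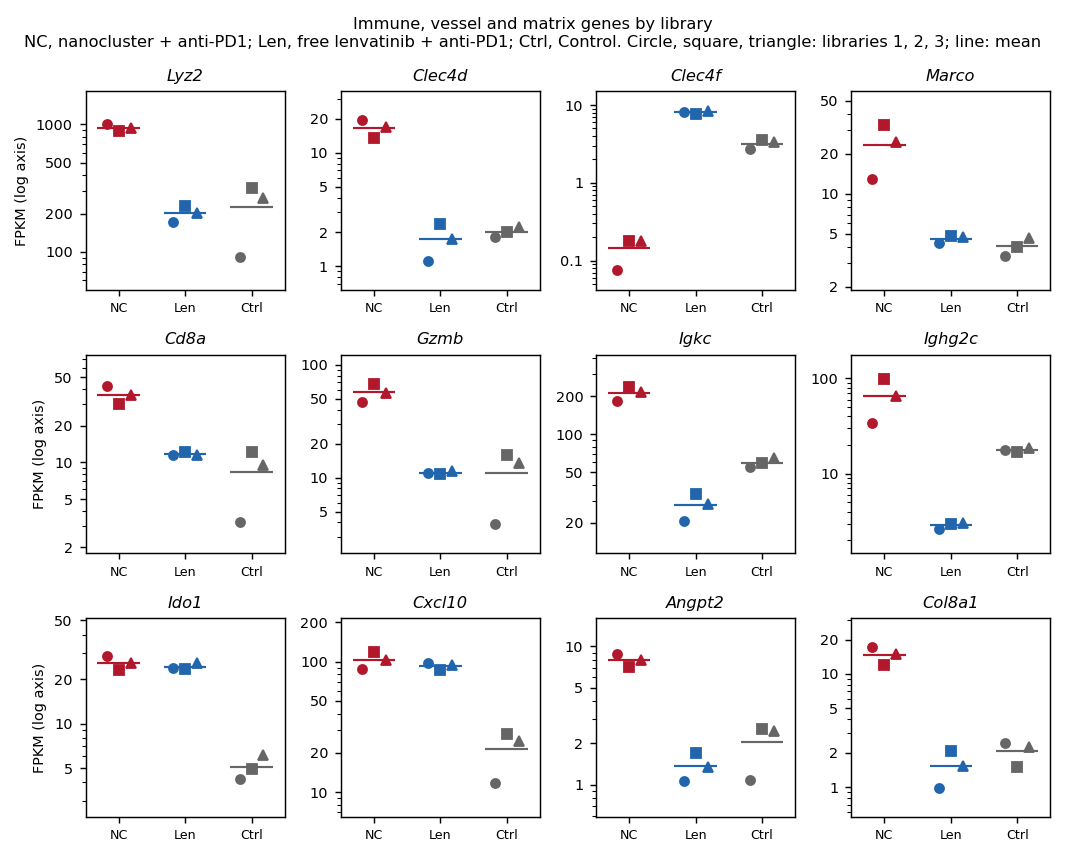
FPKM of 12 immune, vessel and matrix genes in each library on log axes, drawn as in the plot of stress genes. Lyz2, Clec4d, Gzmb and Igkc are higher and Clec4f lower in all 3 nanocluster libraries than in any lenvatinib library, while Ido1 and Cxcl10 overlap between the treatments.

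Interferon response genes were higher in nanocluster tumours for a minority of their members. Of 33 interferon gamma response genes 11 rose, with a median log2 fold change of 0.60, and the Control mean was below both treatments for 25. Ido1, which degrades tryptophan, was at 28.7, 22.96 and 25.9 FPKM against 23.7, 23.5 and 25.6 FPKM, with 4.21 to 6.17 FPKM in Control (log2 fold change 0.08 ± 0.13 SE, adjusted p = 0.658). Cxcl10, which attracts T cells, was at 87.4, 119 and 102 FPKM against 97.6, 85.8 and 94.9 FPKM (adjusted p = 0.731). Both overlapped between the treatments and stood above every Control library. Gbp2, a guanylate-binding protein, was at 392, 339 and 367 FPKM against 206, 196 and 207 FPKM (log2 fold change 0.85 ± 0.22 SE, adjusted p = 0.0223). Type I interferon response genes rose in 14 of 41 cases, among them Oas3, a sensor of double-stranded RNA, at 3.13, 2.27 and 2.72 FPKM against 0.72, 0.69 and 0.71 FPKM. Isg15, the ubiquitin-like modifier, was at 30.0, 22.2 and 25.1 FPKM against 18.3, 15.7 and 16.6 FPKM (adjusted p = 0.0624), and passed without Control replicate 1 or 2. Without the third libraries limma called 0 genes of either list, and 8 and 9, respectively, were higher at an unadjusted p below 0.05. Without nanocluster replicate 1 or 3 or any 1 lenvatinib replicate, 7 interferon gamma and 5 to 9 type I genes rose and Gbp2 did not pass, and without Control replicate 1 29 and 29 rose, and without Control replicate 2 17 and 22.

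The letters TTCNNTTTC, the core of the interferon-stimulated response element, were found on either strand in 8.56% of all windows and in 14 of 25 windows of the interferon gamma list (22 of 34 listed genes had a window). Some of these genes lie in clusters of related copies, and so do their windows. Gbp2 and Tgtp1, which rose, and Cxcl10, which did not pass, are shown with the letters in capitals, at chr3:142620580-142620638 (+), chr11:48992290-48992348 (-) and chr5:92349069-92349127 (-). In the latter pair they read on the opposite strand.
Gbp2: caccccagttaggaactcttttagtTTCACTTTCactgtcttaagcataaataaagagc
Tgtp1: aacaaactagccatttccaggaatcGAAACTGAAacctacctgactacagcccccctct
Cxcl10: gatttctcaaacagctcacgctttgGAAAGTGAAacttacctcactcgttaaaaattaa
Tgtp1, an immunity-related GTPase with a near-identical copy, was at 102, 80.3 and 90.3 FPKM against 41.7, 38.2 and 42.7 FPKM. Gbp2 did not pass without nanocluster replicate 1 or 3 or any 1 lenvatinib replicate.

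Genes of class I antigen presentation were higher. Of 23 class I genes 15 rose, with a median log2 fold change of 0.49, and B2m, the light chain of every class I molecule, was at 2651, 2413 and 2536 FPKM against 1918, 1811 and 1937 FPKM (log2 fold change 0.42 ± 0.07 SE, adjusted p = 0.00375). Neither held without the third libraries, where limma called 0 of the 23 (13 higher unadjusted) and B2m was at an adjusted p of 0.198. Class II genes rose in 5 of 13 cases (H2-DMa, H2-DMb2, H2-Oa, H2-Ob and Ctss), with 0 called by limma without the third libraries (3 higher unadjusted). Cd74, the invariant chain, was at 1781, 1626 and 1703 FPKM against 916, 925 and 932 FPKM and did not pass (adjusted p = 0.0627). The 3 controls, which enter the spread of the fit, were at 591, 1575 and 1255 FPKM. Without Control replicate 1 or 2 Cd74 passed and 12 or 10 class II genes rose, and without any 1 of the 6 treated libraries or Control replicate 3 1 to 3 rose. H2-DMa and Ctss did not pass in any of these 7 fits, H2-DMb2 not without replicate 2 or 3 of either treatment, H2-Oa not without lenvatinib replicate 3 and H2-Ob not without nanocluster replicate 3. Of 18 genes of cytosolic DNA sensing, Ifnar1, Ifnar2, Ifi204 and Ddx41 rose, a share near the 17.3% of all genes. Sting1, the adaptor of the pathway, was at 32.9, 39.6 and 35.6 FPKM against 32.5, 31.0 and 32.0 FPKM (adjusted p = 0.330). Ifnar2, a chain of the type I interferon receptor, was at 21.5, 22.5 and 22.2 FPKM against 13.2, 13.2 and 13.9 FPKM and alone of the 18 passed without the third libraries. Without Control replicate 1 11 genes of this list rose, and Ifi204 did not pass without any 1 of the 6 treated libraries or Control replicate 3.

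Chemokines of myeloid and effector cells were higher in the fit of 9 libraries, where 14 of 29 chemokine genes rose. Limma called 0 of the 29 without the third libraries (9 higher and 1 lower unadjusted). Ccl8, which attracts monocytes, was at 163, 119 and 146 FPKM against 20.4, 19.7 and 20.1 FPKM (log2 fold change 2.79 ± 0.47 SE, adjusted p = 0.0041). Ccl5, a product of T cells and NK cells, was at 190, 121 and 164 FPKM against 37.2, 36.7 and 37.5 FPKM (log2 fold change 2.05 ± 0.25 SE, adjusted p = 0.000819). Ccl19, which draws cells bearing Ccr7, fell, at 0.66, 0.97 and 0.68 FPKM against 2.01, 2.90 and 2.39 FPKM, while Ccr7 rose (6.10 against 2.60 FPKM). Dendritic cell genes rose in 4 of 21 cases (Irf4, Itgae, Ccr7 and Cd80), near the 17.3% of all genes, and Tcf4 fell, with 0 called by limma without the third libraries (2 higher unadjusted). Adhesion molecules were split, since Icam1 rose (24.9 against 9.86 FPKM) and Madcam1, the gut vessel ligand of the integrin that contains Itgb7, fell (2.80 against 7.73 FPKM), while Itgb7 rose (20.9 against 6.90 FPKM). None of these 3 passed without the third libraries. Without nanocluster replicate 1 or 3 or any 1 lenvatinib replicate 6 to 9 chemokine genes rose, and 1 or 2 dendritic genes. Without Control replicate 1 13 dendritic genes rose, and without Control replicate 3 2. Irf4 did not pass without any 1 treated library or Control replicate 3, and Itgae not in these fits but that without nanocluster replicate 2. Cd80 did not pass without any 1 nanocluster replicate or lenvatinib replicate 1 or 3, and Tcf4 not without nanocluster replicate 3 or lenvatinib replicate 1 or 3.

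Genes of sprouting vessels were higher in nanocluster tumours. Of 27 tip cell and VEGF signalling genes 14 rose and Ramp3 and Jag1 fell. Angpt2, which loosens vessels for sprouting, was at 8.82, 7.03 and 8.02 FPKM against 1.06, 1.71 and 1.35 FPKM, and 1.09 to 2.54 FPKM in Control (log2 fold change 2.18 ± 0.26 SE, adjusted p = 0.000678, and 0.0607 without the third libraries). Apln, a peptide of tip cells, was at 6.92, 5.95 and 6.55 FPKM against 0.92, 2.08 and 1.35 FPKM. Pgf, the placental growth factor, was at 2.98, 2.10 and 2.51 FPKM against 0.34, 0.45 and 0.58 FPKM, with 1.38 to 1.71 FPKM in Control, and was the only one to pass without the third libraries. Pecam1, the pan-endothelial marker CD31, was at 12.8, 7.32 and 10.3 FPKM against 2.33, 5.11 and 3.66 FPKM and did not pass (adjusted p = 0.0665). Kdr, the main VEGF receptor and a target of lenvatinib, was at 2.35, 1.33 and 1.68 FPKM against 0.67, 1.59 and 1.00 FPKM, with overlapping groups (adjusted p = 0.268). Of 22 lenvatinib target receptors and their ligands Flt4, Vegfc, Pgf, Pdgfb and Pdgfc rose and Fgfr1, Fgfr4 and Fgf21 fell, shares near the 17.3% and 12% of all genes. Of these, Pgf and Fgf21 passed without the third libraries. Fgfr4, the FGF receptor of hepatocytes, was at 6.66, 7.90 and 7.34 FPKM against 15.2, 13.04 and 14.5 FPKM. Of 23 endothelial genes Flt4, Emcn, Fli1, Esam and Robo4 rose, a share near the 17.3% of all genes. Limma called 0 of the 23 without the third libraries (2 higher unadjusted). Without nanocluster replicate 1 or 3 or any 1 lenvatinib replicate 7 or 8 tip cell and 2 or 3 endothelial genes rose, and without Control replicate 1 or 2 15 or 9 endothelial genes rose and Pecam1 passed. Emcn, Fli1, Robo4 and Pdgfb did not pass without replicate 1 or 3 of either treatment, nor, apart from Robo4, without lenvatinib replicate 2, and Fli1 also not without nanocluster replicate 2 or Control replicate 3.

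Several genes of contractile and vessel-wall cells rose. Acta2, the smooth muscle actin of pericytes and activated fibroblasts, was at 57.4, 33.1 and 45.1 FPKM against 8.05, 18.6 and 13.4 FPKM (log2 fold change 1.76 ± 0.32 SE, adjusted p = 0.00556). Col8a1, a short-chain collagen of vessel walls, was at 17.2, 11.9 and 15.0 FPKM against 0.98, 2.07 and 1.54 FPKM, and 1.49 to 2.46 FPKM in Control (log2 fold change 2.93 ± 0.24 SE, adjusted p = 0.000111). Timp1, the metalloprotease inhibitor, was at 113, 69.8 and 91.2 FPKM against 24.0, 20.9 and 25.3 FPKM, and it and Col8a1 also rose without the third libraries. Col1a1, the main fibrillar collagen, was at 211, 116 and 167 FPKM against 31.5, 162 and 82.3 FPKM, with overlapping groups (adjusted p = 0.168). Dcn, a proteoglycan of resting fibroblasts, fell slightly, at 117, 168 and 145 FPKM against 174, 196 and 187 FPKM (log2 fold change -0.39 ± 0.12 SE, adjusted p = 0.0456). Of 25 fibroblast and pericyte genes 11 rose, of 33 matrix genes 10 rose and Mmp11 fell, and of 22 TGF-beta genes 10 rose and Inhbe fell. Of these, 2 matrix genes rose and Inhbe fell without the third libraries, and limma called 0 fibroblast and 0 TGF-beta genes as higher (7 and 6 unadjusted). Without nanocluster replicate 1 or 3 or lenvatinib replicate 1 or 3, 5 or 6 fibroblast and 4 to 6 matrix genes rose, and without Control replicate 1 17 matrix genes. The TGF-beta genes that rose numbered 6 or 7 without nanocluster replicate 3, lenvatinib replicate 1 or 3 or Control replicate 3. Dcn did not pass without nanocluster replicate 1 or 3, any 1 lenvatinib replicate or Control replicate 2 or 3.

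Among markers of other tissues, those of blood rose in a share above the 17.3% of all genes. Muscle and skin markers gave 0 calls. Fat markers fell in a share near the 12% of all genes, and nerve markers rose in a share under the 17.3%. Red cell and platelet genes rose in 7 of 8 cases, and limma called 0 without the third libraries (7 higher unadjusted), with summed levels of 2130 to 3064 FPKM in nanocluster, 187 to 454 FPKM in lenvatinib and 319 to 622 FPKM in Control libraries. Pf4, a platelet chemokine, was at 44.9, 35.8 and 41.8 FPKM against 7.25, 12.7 and 10.9 FPKM (adjusted p = 0.0508 without the third libraries). Of 5 pancreatic and intestinal genes Cela1, Vil1 and Fabp2 fell, and limma called 0 without the third libraries (2 lower unadjusted). Cela1, a pancreatic-type elastase, did not pass without replicate 1 or 3 of either treatment. Striated muscle genes gave 0 calls in 22, but 21 fell without lenvatinib replicate 1. Acta1, the skeletal actin, was at 14.4, 17.9 and 16.9 FPKM against 10.9, 1742 and 697 FPKM, and the imprinted gene H19, expressed in fetal tissue and muscle, at 2.82, 1.92 and 2.13 FPKM against 1.202, 88.8 and 35.6 FPKM. Both passed as lower without lenvatinib replicate 1, and both were higher in the nanocluster group when that library alone stood for lenvatinib. Of 12 neural genes Tubb3, a tubulin of neurons, rose, at 18.2, 2.85 and 9.77 FPKM against 1.05, 0.87 and 0.94 FPKM, and 10 rose without nanocluster replicate 2. Squamous keratins gave 0 calls in 15, and 2 of 17 adipocyte genes, Pck1 and Thrsp, fell, with 8 lower without lenvatinib replicate 1. At an unadjusted p below 0.05, limma put 17 muscle genes and 0 keratins lower. Limma called 0 genes without the third libraries of the muscle, keratin, adipocyte and neural lists (0, 0, 1 and 1 unadjusted, respectively). Thrsp did not pass without replicate 2 or 3 of either treatment or Control replicate 3.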

How the data were processed

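RNA of 9 mouse tumours, 3 in each of 3 groups, had been sequenced with paired reads of 150 bases. The authors deposited 1 table of FPKM per gene and library. Which aligner, build, annotation and counting settings they used is not stated in the labels; fastp, StringTie and edgeR are named, per the submitters' processing notes, without a role. No read counts were used, depth is unknown, and no count model was fitted. The labels do not say whether the 3 libraries of a group came from separate mice, so p-values measure the spread between these samples, which may be technical.

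The 15353 genes that averaged 0.5 FPKM or more over all libraries entered the test, on log2(FPKM + 0.5), a scale that understates the change of low genes. limma 3.58.1 in R 4.3.3 was fitted with a trended, robust prior to all 9 libraries with 3 group means (6 residual degrees of freedom), and the contrast was nanocluster minus free lenvatinib. Adjusted p is Benjamini-Hochberg over all genes, with a threshold of 0.05. The same fit without the third libraries has 3 residual degrees of freedom. Tested on simulated data with these 15353 genes, the fit found 74.2% of 66 genes changed 2-fold and 91.4% of 58 changed 4-fold. It found 26.3% of 76 changed 1.5-fold, and it called 10 unchanged genes. These figures hold for independent libraries and for far fewer changed genes than the 4507 called in the data. They do not show how the fit performs if library 3 of each group depends on libraries 1 and 2.

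The comparison and the 62 gene lists (1495 of 1504 entries found) were chosen with earlier results of these data known. Named genes came from the 12 largest rises and falls, the 10 largest without the third libraries, up to 6 called and 3 uncalled members of each list, and a fixed list, with a mean floor of 4 FPKM for the first 2. A further 55 were chosen after their values were seen: Acaa2, Aco1, Atf3, Atp6v1a, B2m, C2, C3, C8g, Ccl19, Cd14, Cfb, Chac1, Cpt1a, Ctsa, Ctsd, Cyp7a1, Dcn, Dnajc3, Egln1, F13b, Fgfr1, Foxa2, Ftl1, H19, Hebp1, Hspa9, Ido1, Igf2bp3, Ighg1, Il33, Jag1, Lamp1, Lcn2, Lif, Mcoln1, Mmp11, Nupr1, Padi4, Pdgfb, Plac8, Pvr, Pycr1, Ramp3, Saa1, Saa2, Saa3, Selenbp1, Spic, Spp1, Taldo1, Tfeb, Tfrc, Timd4, Txnrd1 and Vldlr. Some genes that entered the lists and counts are not reported here by name. Promoter sequences are RefSeq's, on GRCm38.p6.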

Additional observations from a re-analysis of the deposited data

How the results depend on the processing

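The counts of genes higher and lower (2657 and 1850) stayed within 1.5 times of these values under other pseudocounts, filters, scalings, a plain variance model and the 6 treated libraries alone. They were 68 and 297 with libraries 1 and 2 of each group, 523 and 598 with 1 lenvatinib library, 52 and 333 for changes beyond 2-fold, and 941 and 634 with libraries 1 and 2 of the treatments alone, an alternative chosen after seeing the data. Leaving out 1 library gave 1218 to 4224 higher and 1134 to 2368 lower. To look for pairing, each group's mean was subtracted from the log2 values of 8835 genes with higher mean levels. These deviations from the group mean, not the levels themselves, were correlated between libraries. Same-numbered treated libraries gave -0.252, -0.307 and 0.0851 for numbers 1, 2 and 3. Crossing numbers 1 and 2 between the treatments gave 0.278 and 0.292. Thus numbers 1 and 2 gave no sign of a positive pairing. Library 3 of each group lay close to a mixture of libraries 1 and 2. These values are therefore not separate tests, and they cannot decide whether the libraries were paired in another way. A replicate block gave 1853 and 1454. Of 5728 values for named genes, 4843 kept direction and call, 798 lost the call, 73 gained it and 14 turned. The 14 were log2 fold changes near 0 or of muscle-linked genes. Under median-of-ratios and upper quartile scaling Hnf4a was at -0.044 and -0.022, Mki67 at -0.028 and -0.0063, and Foxp3 at -0.028 and -0.015. Leaving out 1 library put Hnf4a between -0.027 (without nanocluster replicate 2) and 0.070, Mki67 between -0.088 (without nanocluster replicate 2) and 0.171, and Foxp3 between -0.027 (without lenvatinib replicate 1) and 0.085. Hnf4a also turned without lenvatinib replicate 2 (-0.0040), and Foxp3 without nanocluster replicate 1 (-0.024) and lenvatinib replicate 3 (-0.019). With 1 lenvatinib library Acta1 was at 0.56 and H19 at 0.70. Apart from the fits with fewer libraries or a minimum change, the cause was not tested.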
